A study of Mus musculus with 7 samples.

Results

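A set of 9 genes of alcohol and retinoid metabolism was described in 2 fat depots of the mouse, namely Adh1, Aldh1a1, Aldh1a2, Aldh1a7, Aldh2, Rdh16, Rdh11, Rbp4 and Retsat. The genes were chosen by name, and all 9 had a probe with exactly 1 gene symbol among the 9294 genes tested. Each of the 9 had 1 probe, so no choice between probes was needed. Expression was measured on Affymetrix microarrays in wild-type (WT) male C57 mice, with no treatment or transgene in the labels and no age given there. The groups were 4 arrays of paracardial fat (pCF), which lies beside the heart, and 3 of intra-abdominal fat (iVF). The labels call the replicates biological but do not say that they were separate animals. The p-values set the depot difference against the spread of these samples only, and that spread may be technical. The comparison asks which genes differ between the depots, with alcohol dehydrogenase 1 (Adh1) in the title of the series.

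Vitamin A reaches tissues as retinol bound to a plasma carrier. Inside a cell, alcohol dehydrogenases and retinol dehydrogenases oxidise retinol to retinaldehyde, and aldehyde dehydrogenases of the Aldh1a family oxidise retinaldehyde to retinoic acid, the ligand of nuclear receptors that control genes of fat cell differentiation. The same enzyme classes clear ethanol through acetaldehyde to acetate, and adipose tissue is a known store of retinoids.

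The tissue labels were set against lists of marker genes. On paracardial replicates 1 and 2 the 11 measured adipocyte markers of 14 listed had medians of 5.91 and 5.80 on the deposited log2 scale, below the medians of those whole arrays, 6.07 and 6.005. The adipocyte medians were 7.97 and 9.26 on paracardial replicates 3 and 4 and 14.6, 14.4 and 15.9 on the 3 intra-abdominal arrays. Summed over the 11 markers, the log2 levels ran from 64.7 to 107 in paracardial fat and from 150.1 to 168 in intra-abdominal fat. Thymocyte markers ran the other way, with sums over 7 measured genes of 13 listed from 78.3 to 98.6 in paracardial and 41.3 to 69.4 in intra-abdominal fat. Paracardial replicate 3 alone carried a high albumin value (Alb, 14.37, against 4.77 to 8.73 on the other arrays). Fgb, another liver transcript, was 7.01 there against 3.88 to 5.001, and Apoa1 6.36 against 4.37 to 4.98. These come from a hepatocyte list of 8 genes, 4 of them measured. The last of the 4, Cyp2e1, was 15.77 on that array and 18.86 to 18.98 on the intra-abdominal arrays. None of the 4 passed between depots, and their median difference was -0.0156. Paracardial replicate 4 and intra-abdominal replicate 3 shared the highest array maximum, 19.93, while the maxima of the other 5 arrays lay between 19.81 and 19.84. Such array differences are given below beside the values they move with, and in whole tissue fewer cells of a type and less RNA per cell cannot be told apart.

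Promoter sequences of 5 members are shown first, 4 that were lower in paracardial fat and, beside its paralogs, Aldh1a2, which did not pass. They are RefSeq sequences of assembly GRCm38.p6, from 250 bases before to 30 bases after an annotated transcription start, 5′ to 3′ on the gene's strand. Of the 9 members 8 had such a window (all but Aldh2), 11 windows in all, since Aldh1a1, Rdh11 and Rbp4 each have 2 annotated starts. Both strands were searched for the E-box CACGTG, a motif that basic helix-loop-helix factors bind. The TATA motif was searched as TATAAA, the letters known from many start sites with a fixed position. The half-site that many nuclear receptors bind was searched as AGGTCA, alone and in direct repeat with 1 or 5 bases between, so the repeats overlap the search for the half-site. The octamer known from POU factors was searched as ATGCAAAT. The octamer was added after the sequences were seen. Matches are in capitals. The first is the start of Adh1 on chromosome 3 (chr3:138277335-138277614, plus strand), with an E-box at bases 5 to 10, counted from 1 at the first transcribed base, while -1 is the base before it.
Adh1: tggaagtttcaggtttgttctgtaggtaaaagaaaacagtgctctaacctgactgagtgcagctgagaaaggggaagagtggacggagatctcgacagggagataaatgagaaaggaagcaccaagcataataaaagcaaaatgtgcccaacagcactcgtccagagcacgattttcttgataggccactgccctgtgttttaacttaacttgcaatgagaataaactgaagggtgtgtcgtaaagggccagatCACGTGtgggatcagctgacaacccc
The start of Retsat on chromosome 6 (chr6:72598352-72598631, plus strand) is shown because its difference varied least between arrays, and it holds a TATA motif at bases -30 to -25.
Retsat: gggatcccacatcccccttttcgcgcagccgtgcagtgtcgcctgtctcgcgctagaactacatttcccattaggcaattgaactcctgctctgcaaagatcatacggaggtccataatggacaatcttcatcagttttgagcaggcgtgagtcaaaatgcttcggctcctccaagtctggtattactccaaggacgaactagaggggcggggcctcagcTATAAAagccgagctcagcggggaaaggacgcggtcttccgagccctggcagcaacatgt
Aldh1a1 (second annotated start, chr19:20601718-20601997, plus strand) and Aldh1a7 (chr19:20727527-20727806, minus strand) are paralogs on chromosome 19, shown for their resemblance.
Aldh1a1: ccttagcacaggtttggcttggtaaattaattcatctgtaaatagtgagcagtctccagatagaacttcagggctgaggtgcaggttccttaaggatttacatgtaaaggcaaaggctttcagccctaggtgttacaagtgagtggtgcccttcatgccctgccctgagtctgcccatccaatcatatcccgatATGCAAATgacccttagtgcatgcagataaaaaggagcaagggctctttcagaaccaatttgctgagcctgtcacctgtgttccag
Aldh1a7: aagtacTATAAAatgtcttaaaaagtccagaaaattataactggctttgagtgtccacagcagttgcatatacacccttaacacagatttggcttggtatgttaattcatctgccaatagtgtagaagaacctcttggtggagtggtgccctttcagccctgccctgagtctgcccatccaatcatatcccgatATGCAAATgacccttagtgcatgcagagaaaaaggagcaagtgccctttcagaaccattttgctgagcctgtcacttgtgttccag
Aldh1a2 on chromosome 9 (chr9:71215539-71215818, plus strand) is shown as the member of the same family whose depots overlapped.
Aldh1a2: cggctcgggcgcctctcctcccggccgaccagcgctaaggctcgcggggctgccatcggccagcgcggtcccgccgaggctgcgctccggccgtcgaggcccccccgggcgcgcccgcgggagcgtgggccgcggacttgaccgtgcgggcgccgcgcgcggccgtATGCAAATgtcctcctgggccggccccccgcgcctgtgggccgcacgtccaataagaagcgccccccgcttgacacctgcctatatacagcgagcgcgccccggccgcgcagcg
Over the last 150 bases of their windows, Aldh1a1 and Aldh1a7 shared 133 bases without gaps (88.7%) and differed at 17, a stretch chosen after the sequences were seen. Aligned over the whole windows, identity was 68.5% at the second start of Aldh1a1 and 51.3% at its first, against at most 51.5% for windows of any other pair of members. Only 3 annotated genes, none of them protein coding, lie between this pair of genes. The octamer stood at bases -56 to -49 in both and at -84 to -77 in Aldh1a2, while 1.69% of the 32851 promoter windows of this length in the table held it. Of these windows 6.79% held the E-box, 13.1% the TATA motif and 15.3% the half-site. Among members not printed, Rdh11 held 2 E-boxes (-230 to -225 and -182 to -177) and a half-site (-147 to -142) at its second start. Rdh16 held a TATA motif (-82 to -77) and a half-site (-238 to -233), and Rbp4 a TATA motif (-28 to -23) at its second start. The TATA motif of Aldh1a7 lay at -244 to -239. Neither spaced repeat was found in the 11 windows of the members, and 0.0365% and 0.00913% of all windows held them. A match describes the letters only, and the octamer occurred both in members that were lower in paracardial fat and in one whose depots overlapped.

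In paracardial fat 5 of the 9 members were lower at a limma adjusted p under 0.05, 4 did not pass, and there was no higher member. These 5 were Adh1, Aldh1a1, Aldh1a7, Rbp4 and Retsat, and in each of them the highest paracardial array was below the lowest intra-abdominal array. Over all 9294 genes, 9.16% passed the same test, 2.91% as lower and 6.25% as higher. By position alone 26.7% of all genes had depots that did not overlap, and 8.78% of all genes had paracardial fat the lower. The median difference of the 9 members was -3.70, against 0.133 over all genes tested. The list was chosen with earlier results of these arrays known, so its count is no independent evidence of direction. Without paracardial replicates 1 and 2, the arrays low in adipocyte markers, none of the 9 passed, with differences of -5.34 to 0.832 and adjusted p of 0.0873 to 0.988. In that limma fit 1 gene of all tested passed and 1751 had an unadjusted p under 0.05. Without paracardial replicates 3 and 4 instead, 1 member passed, Retsat.

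**Figure D1:**
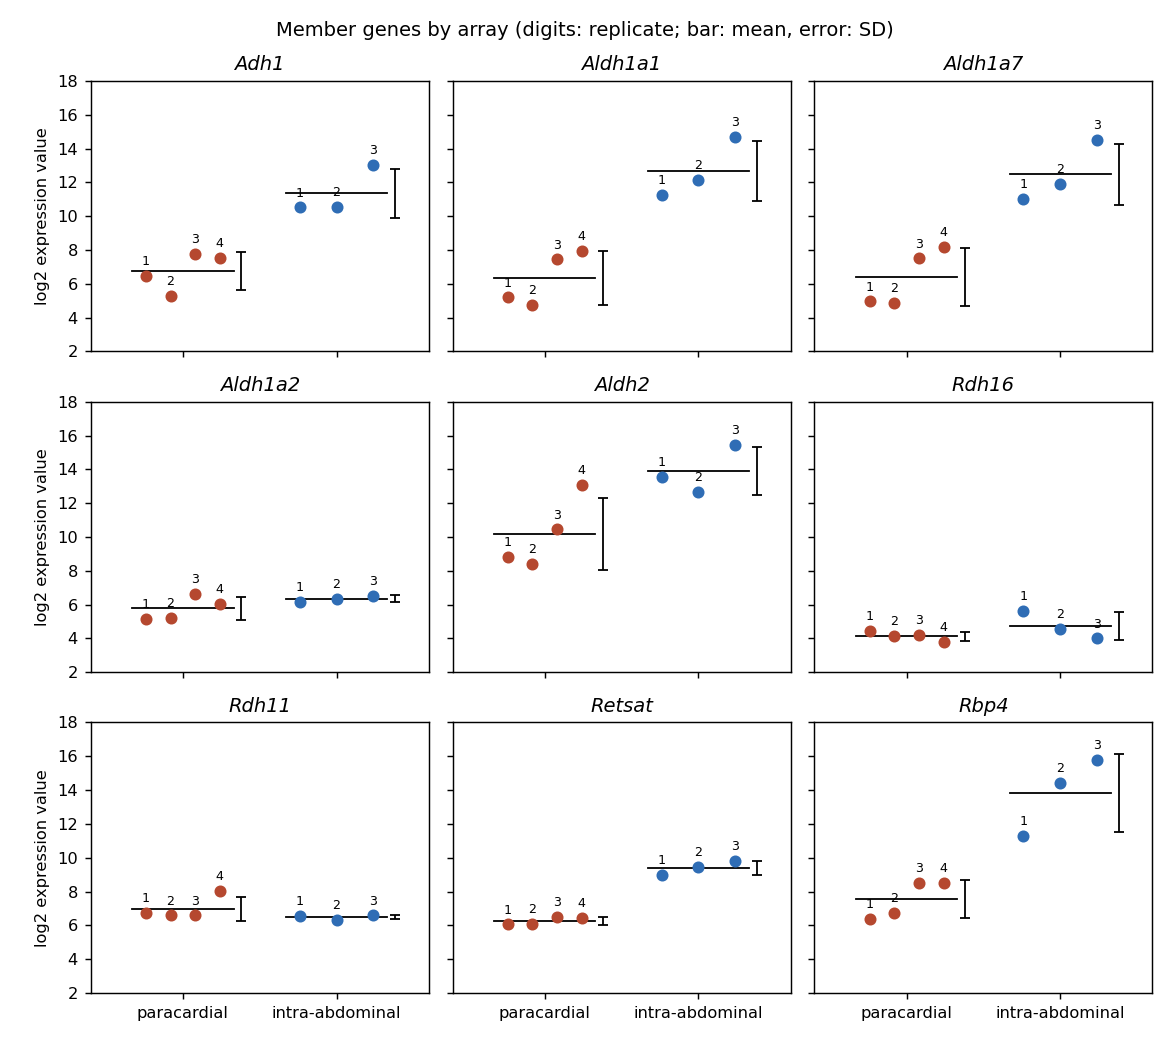
Log2 expression value of each member gene (vertical axis) on the 4 paracardial (red) and 3 intra-abdominal (blue) arrays, with digits for the replicate, a bar for the mean and an error bar for the SD. Adh1, Aldh1a1, Aldh1a7, Retsat and Rbp4 have gaps of 2.49 to 3.32 between the highest paracardial and the lowest intra-abdominal array, while the other 4 genes overlap.

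Adh1 is the cytosolic alcohol dehydrogenase that oxidises ethanol and retinol. Its log2 value was 6.47, 5.28, 7.77 and 7.53 on paracardial replicates 1 to 4 and 10.52, 10.54 and 13.04 on intra-abdominal replicates 1 to 3. The depots were therefore 2.75 apart at their nearest arrays, more than the 2.49 between the highest and the lowest paracardial array and the 2.52 between those of intra-abdominal fat. On paracardial replicate 2 Adh1 was below the median of the whole array, 6.005. Signal over background is unknown, so low signal may narrow the paracardial range, which was not tested. The difference was -4.61 ± 0.85 (SE; n = 4 and 3, limma adjusted p = 0.0239, 95% confidence interval -6.65 to -2.57). A two-sided exact permutation test over the 35 splits of the arrays gave p = 0.0286, the smallest that 4 arrays against 3 can give. Aldh1a1, Aldh1a7, Rbp4 and Retsat gave the same p. This p restates the separation of the depots and is no further evidence. Among the 5 arrays of the lower maximum the difference was -4.03 and did not pass (adjusted p = 0.0530), and between the 2 of the higher maximum it was -5.51. Leaving out the array with the high albumin value gave -4.945, with an adjusted p of 0.0493. The call ended without paracardial replicate 1 (adjusted p = 0.0748) or 2 (0.0553) and without intra-abdominal replicate 2 (0.0749), with differences of -5.03 to -3.77 over the 7 arrays left out in turn.

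Neither of the other members that act between retinol and retinaldehyde passed the test. Rdh16, a microsomal dehydrogenase that oxidises retinol and steroids, had values of 4.43, 4.14, 4.18 and 3.79 on paracardial and 5.63, 4.55 and 3.99 on intra-abdominal replicates. These values lay near the low end of the arrays, whose 5th percentiles were 3.995 to 4.438, and the depots overlapped. Its difference of -0.59 ± 0.40 did not pass (adjusted p = 0.448, 95% confidence interval -1.55 to 0.372). Rdh11, a microsomal enzyme that reduces retinaldehyde to retinol, read 6.71, 6.59, 6.59 and 8.05 on paracardial and 6.54, 6.33 and 6.59 on intra-abdominal arrays. The other 6 arrays lay within a narrow band, and paracardial replicate 4 stood above them. The difference was 0.50 ± 0.40 (adjusted p = 0.512, 95% confidence interval -0.453 to 1.45), and 0.143 without that replicate. The same deposited value stood on 3 arrays for Rdh11, and 19.03% of all genes tested repeated a value on at least 2 arrays.

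Aldh1a1 encodes a main retinaldehyde dehydrogenase of adult tissues. It was at 5.20, 4.77, 7.44 and 7.95 on paracardial replicates 1 to 4 and at 11.27, 12.13 and 14.68 on intra-abdominal replicates 1 to 3. Paracardial replicates 1 and 2 were its lowest arrays and intra-abdominal replicate 3 its highest. On paracardial replicates 1 and 2 it was below the whole array medians, 6.07 and 6.005. The difference of -6.35 ± 1.11 (n = 4 and 3, adjusted p = 0.0207) was the largest of the 9 in size, with a 95% confidence interval of -9.00 to -3.70 that covers those of Rbp4 and Aldh1a7 in part.

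Aldh1a7, the neighbouring paralog, read 4.96, 4.89, 7.51 and 8.21 in paracardial and 11.03, 11.93 and 14.51 in intra-abdominal fat. Like Aldh1a1, it was below the whole array medians on paracardial replicates 1 and 2. Its difference between depots was -6.10 ± 1.17 (n = 4 and 3, adjusted p = 0.0264). From array to array it moved with Aldh1a1, since Aldh1a1 minus Aldh1a7 was 0.232, -0.121, -0.0645 and -0.259 on paracardial and 0.238, 0.197 and 0.168 on intra-abdominal replicates. Signal shared between the probes of these paralogs was not tested, and the 2 differences are not counted as separate evidence. Both calls ended without paracardial replicate 1 (adjusted p = 0.0659 for Aldh1a1 and 0.0754 for Aldh1a7), paracardial replicate 2 (0.0551 and 0.0691) or intra-abdominal replicate 2 (0.0780 and 0.0891). That of Aldh1a7 also ended without paracardial replicate 3 (0.0554) or intra-abdominal replicate 3 (0.05004).

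Aldh1a2, the retinaldehyde dehydrogenase best known from the embryo and from mesothelium, did not follow this pair. It was at 5.18, 5.22, 6.64 and 6.05 on paracardial and 6.17, 6.36 and 6.54 on intra-abdominal replicates. Paracardial replicate 3 was its highest array of all, so the depots overlapped. The whole array medians were 6.005 to 6.37 in paracardial and 5.995 to 6.115 in intra-abdominal fat. The values of Aldh1a2 lay from below to slightly above them in paracardial fat and slightly above them in intra-abdominal fat. Signal over background is unknown, so whether this probe could show a difference like that of the pair is unknown too. The difference was -0.59 ± 0.40 (adjusted p = 0.444), with a 95% confidence interval of -1.54 to 0.363 that leaves out the differences measured for Aldh1a1 and Aldh1a7. The mesothelial marker Msln was at 4.74 to 4.93 in paracardial and 4.76 to 5.33 in intra-abdominal fat, near the low end of both. Of the 5 mesothelial markers tested 2 were higher and 3 did not pass, and Krt18, a keratin of simple epithelia, was 12.4 to 14.0 in paracardial and 5.25 to 8.71 in intra-abdominal fat.

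Aldh2, the mitochondrial enzyme that oxidises acetaldehyde, had a wide spread in paracardial fat. Its values were 8.81, 8.39, 10.45 and 13.10 on paracardial replicates 1 to 4 and 13.53, 12.68 and 15.44 on intra-abdominal replicates 1 to 3. Paracardial replicate 4 lay above intra-abdominal replicate 2, while the other 3 paracardial arrays were lower than any intra-abdominal one. The difference of -3.70 ± 1.25 did not pass over all genes (adjusted p = 0.126, 95% confidence interval -6.69 to -0.709). Without paracardial replicate 4 the difference was -4.67 and passed (adjusted p = 0.0448). It also passed with the arrays that share a maximum as a block (adjusted p = 0.0207) and with array weights (0.00251).

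Retsat, the enzyme that saturates retinol to a dihydroretinol, had the most even values within depots among the members that were lower. It read 6.05, 6.09, 6.49 and 6.41 on paracardial and 8.97, 9.45 and 9.81 on intra-abdominal replicates. The paracardial arrays lay within 0.436 of each other, and the nearest arrays of the depots were 2.49 apart. These paracardial values lay near the medians of the whole arrays, 6.07, 6.005, 6.26 and 6.37. Signal over background is unknown, so their evenness may be that of a probe with little signal, which was not tested. The difference of -3.15 ± 0.26 (n = 4 and 3, adjusted p = 0.00671, 95% confidence interval -3.76 to -2.54) was smaller than that of Adh1 in size and placed Retsat at rank 9 of 9294 genes by p-value. It passed in all 7 fits that left out an array (adjusted p = 0.00348 to 0.0375). It did not pass without paracardial replicates 1 and 2 together (-2.96, adjusted p = 0.0873).

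Rbp4 encodes the retinol carrier of plasma, made by liver and fat cells. Its values were 6.39, 6.76, 8.502 and 8.49 on paracardial and 11.29, 14.43 and 15.78 on intra-abdominal replicates. The intra-abdominal arrays were spread over 4.49, the widest range of that depot among the 9 genes, and paracardial replicates 3 and 4 were nearly equal. The difference was -6.30 ± 1.13 (n = 4 and 3, adjusted p = 0.0217, 95% confidence interval -9.00 to -3.60). The call ended without paracardial replicate 1 (adjusted p = 0.0683), 2 (0.0654) or 3 (0.0510) and without intra-abdominal replicate 2 (0.0950). Among the 5 arrays of the lower maximum it was -5.64 and did not pass (0.0634).

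**Figure D2:**
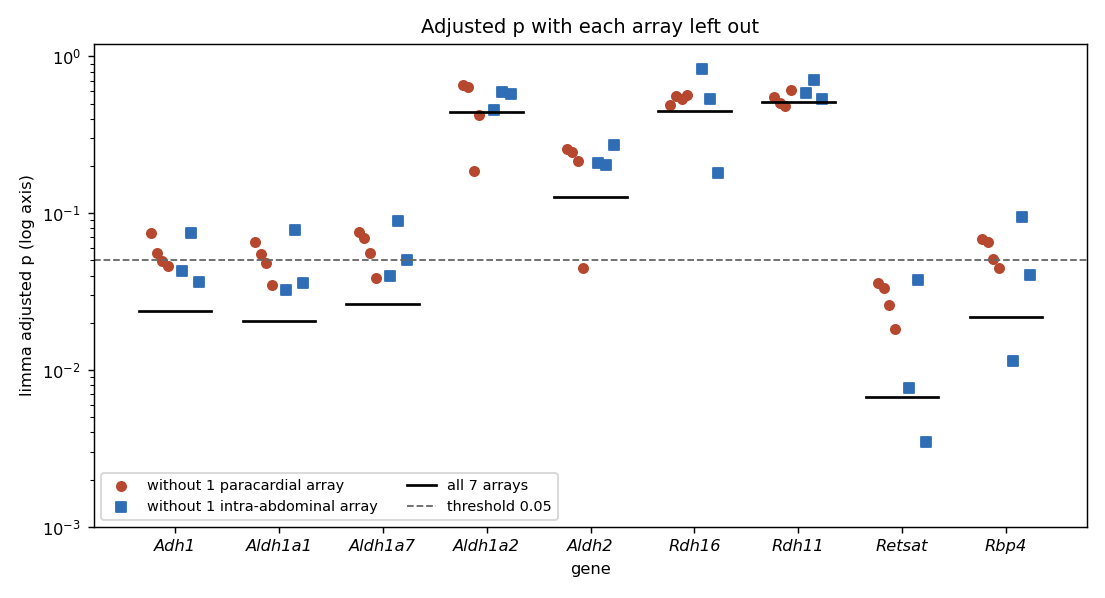
Limma adjusted p of each member gene (log axis) with all 7 arrays (black line) and with 1 paracardial (red circles) or 1 intra-abdominal (blue squares) array left out, and the threshold of 0.05 (dashed). Retsat stays under the threshold in all 7 fits, Adh1 and Aldh1a1 in 4, Rbp4 in 3, Aldh1a7 in 2 and Aldh2 in 1.

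The members were also read against the adipocyte markers of the same array, by subtracting the median of the 11 measured markers from each member. Levels of different probes are not comparable, so only the change of this value between depots is given, and it was not tested. A gene with equal values in both depots would also be higher on this measure, since the markers were lower in paracardial fat. On paracardial replicates 1 and 2 the marker median, 5.91 and 5.80, lay below the whole array medians, 6.07 and 6.005. For Adh1 it was 0.559, -0.523, -0.199 and -1.73 on paracardial and -4.07, -3.86 and -2.84 on intra-abdominal arrays. Relative to that median Adh1 was higher in paracardial fat by 3.12 on the log2 scale (2.78 to 3.54 with each array left out), and the depots did not overlap. The differences of the single markers ran from -8.67 to -2.45, so that of Adh1, -4.61, lay within their range. For Aldh1a1 and Rbp4 the depots overlapped on this measure, with changes of 1.38 and 1.43, and for Aldh1a7 the change was 1.63. The changes were 4.03 for Aldh2 and 4.58 for Retsat, with no overlap. They were 7.14 for Aldh1a2, 7.14 for Rdh16 and 8.23 for Rdh11, beside a median difference of the markers of -7.35. Of the 11 adipocyte markers 8 passed as lower, and Lgals12, a galectin of fat cells, differed most (-8.67 ± 0.91, adjusted p = 0.00818). The part of fat cell content in the lower values of the members was not tested.

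**Figure D3:**
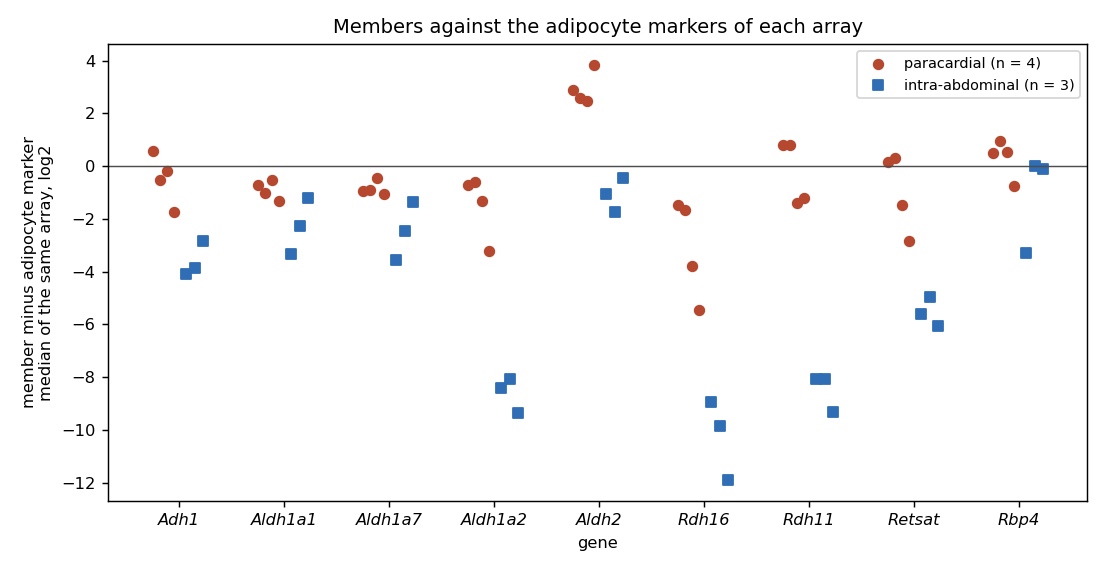
Value of each member gene minus the median of 11 adipocyte markers on the same array, in log2 units (vertical axis), for 4 paracardial (red circles) and 3 intra-abdominal (blue squares) arrays. The squares lie below the circles for Adh1, Aldh1a7, Aldh1a2, Aldh2, Rdh16, Rdh11 and Retsat, and overlap them for Aldh1a1 and Rbp4. A gene with equal values in both depots would also separate here, since the markers differ between depots.

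The rest of alcohol and retinoid metabolism was read from lists of 84 other genes, of which 21 were tested and 63 were not analysed here. Of the 21, 5 passed as lower in paracardial fat and 16 did not pass, with a median difference of -0.59. All 5 calls ended without paracardial replicates 1 and 2, and also without intra-abdominal replicate 2. Among alcohol dehydrogenases only Adhfe1 was tested, a mitochondrial iron-dependent enzyme that oxidises hydroxybutyrate, and it was lower (-4.53 ± 0.75, adjusted p = 0.0184). Its values were 5.91, 5.99, 7.31 and 7.65 on paracardial and 10.02, 11.02 and 12.71 on intra-abdominal arrays.

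Of 5 other aldehyde dehydrogenases 2 passed as lower and 3 did not pass. Aldh6a1, which acts in valine breakdown, had a difference beyond that of any member (-6.82 ± 0.94, adjusted p = 0.0125). Aldh1l1, an enzyme of folate metabolism, was lower too (-2.43 ± 0.46, adjusted p = 0.0246). Neither of them acts on retinaldehyde as its known substrate. None of 5 other retinol dehydrogenases and retinal reductases passed, and the one with the largest difference was Dhrs4, a retinal reductase (-1.27 ± 0.68, adjusted p = 0.320). Their median difference was 0.0853.

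Downstream and storage genes were few. Pnpla2, the main triglyceride lipase of fat cells, which also acts on retinyl esters, was the only storage gene tested of 9 listed and was lower (-7.19 ± 1.43, adjusted p = 0.0286). Neither of the 2 binding proteins passed, and Fabp4, a fatty acid carrier of fat cells that is also on the adipocyte list, differed by -6.38 ± 1.90 (adjusted p = 0.0917). Among retinoic acid responsive genes neither of 2 passed, with chemerin, Rarres2, at -2.74 ± 1.00 (adjusted p = 0.150). Rarres2 was at 4.96 to 7.19 in paracardial and 7.24 to 11.10 in intra-abdominal fat, which did not overlap by a gap of 0.0489. The 1 retinoid receptor tested, Rxrb, did not pass (0.18 ± 0.19, adjusted p = 0.614), nor did either of 2 genes of retinoic acid clearance, with Cyp2s1 at -0.15 ± 0.29 (adjusted p = 0.792).

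On the ethanol side, 1 of 3 listed genes with values was lower, Aldh2 being one that was not. Catalase, Cat, which degrades peroxide and can oxidise ethanol, was at 9.90 to 15.1 in paracardial and 16.9 to 18.03 in intra-abdominal fat (-5.29 ± 1.22, adjusted p = 0.0453). Cyp2e1, the ethanol-inducible cytochrome, had the largest difference of these lists but did not pass (-8.29 ± 2.25, adjusted p = 0.0704). It was at 6.56 and 7.45 on paracardial replicates 1 and 2, 15.77 on replicate 3, 12.80 on replicate 4 and 18.86 to 18.98 in intra-abdominal fat. Cyp2e1, which is abundant in liver, had its highest paracardial value on the array with the high albumin value, and the part of liver RNA in it was not tested. It passed without that array (adjusted p = 0.0440), and with all arrays kept after quantile normalization (0.0432), cyclic loess (0.0448), array weights (0.00239) or a filter on the dimmest 50% of genes (0.0446).

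**Figure D4:**
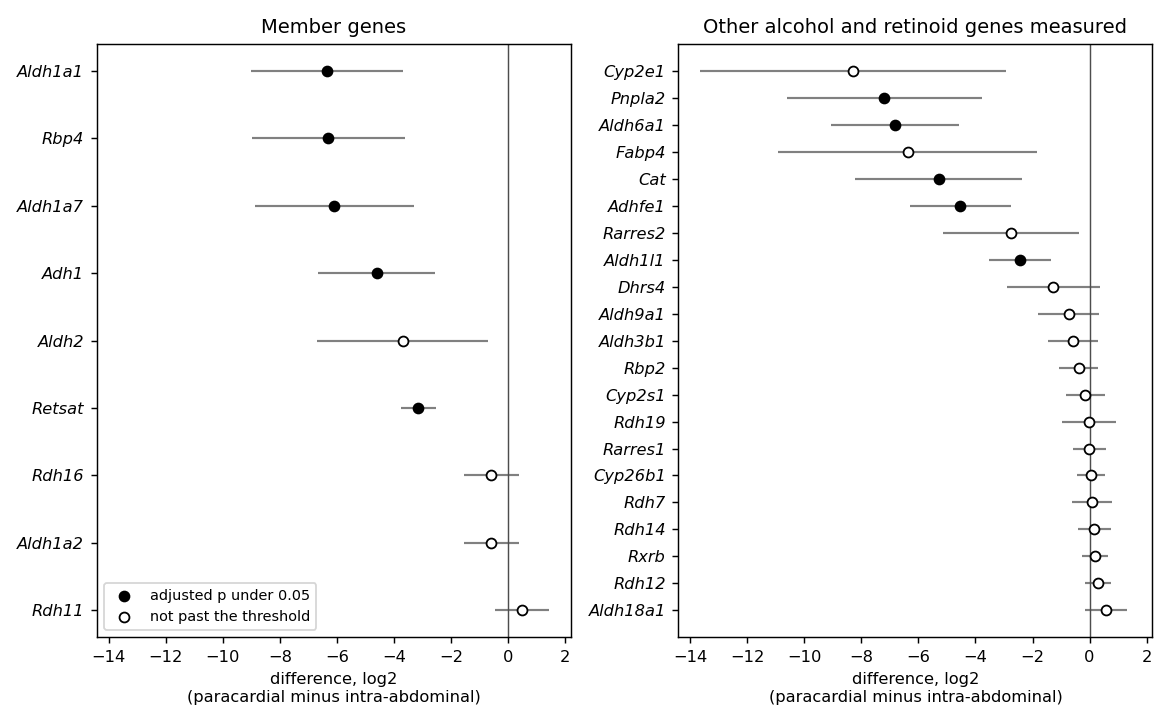
Difference between paracardial and intra-abdominal fat in log2 units (horizontal axis) with its 95% confidence interval for the 9 member genes (left) and 21 other genes of the pathway (right). Filled points mark the 5 members and 5 other genes at an adjusted p under 0.05, all of them below 0.

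The genes whose profile was most like that of Adh1 were found by the root mean square distance over the 7 arrays, after each gene was centred on its own mean, among 4987 named genes. The nearest was Kdr, a receptor for vascular endothelial growth factor on endothelium, at a distance of 0.391. It was followed by Ndrg2, a gene of the NDRG family (0.404), the water channel Aqp1 (0.412), Adhfe1 (0.476) and the angiotensin converting enzyme Ace (0.534). These 5 differed by -4.78 to -3.98 between depots, and each call ended without paracardial replicate 1 or 2 and without intra-abdominal replicate 2. The call of Aqp1 ended with any of the 7 arrays left out (limma adjusted p = 0.0569 to 0.115). The 5 were picked for their likeness to Adh1 on these same arrays. Differences near that of Adh1 therefore follow from the choice and are no further evidence. Kdr was at 5.49, 5.44, 6.77 and 7.35 on paracardial and 10.19, 10.15 and 12.79 on intra-abdominal arrays, so its nearest depots were 2.802 apart. Among members the nearest to Adh1 was Aldh1a7, at rank 75 and a distance of 0.983. The 4 endothelial markers tested of 7 listed, Kdr among them, had medians of 5.31 to 6.98 in paracardial and 8.73 to 11.3 in intra-abdominal fat, and the largest difference was that of the junction protein Cdh5 (-7.05 ± 0.94, adjusted p = 0.0117). Of these 4 markers 2 were lower and 2 did not pass. Summed over the 4, the log2 levels were 21.5 to 28.2 in paracardial and 36.6 to 46.4 in intra-abdominal fat. The part of endothelial content in the Adh1 difference was not tested.

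**Figure D5:**
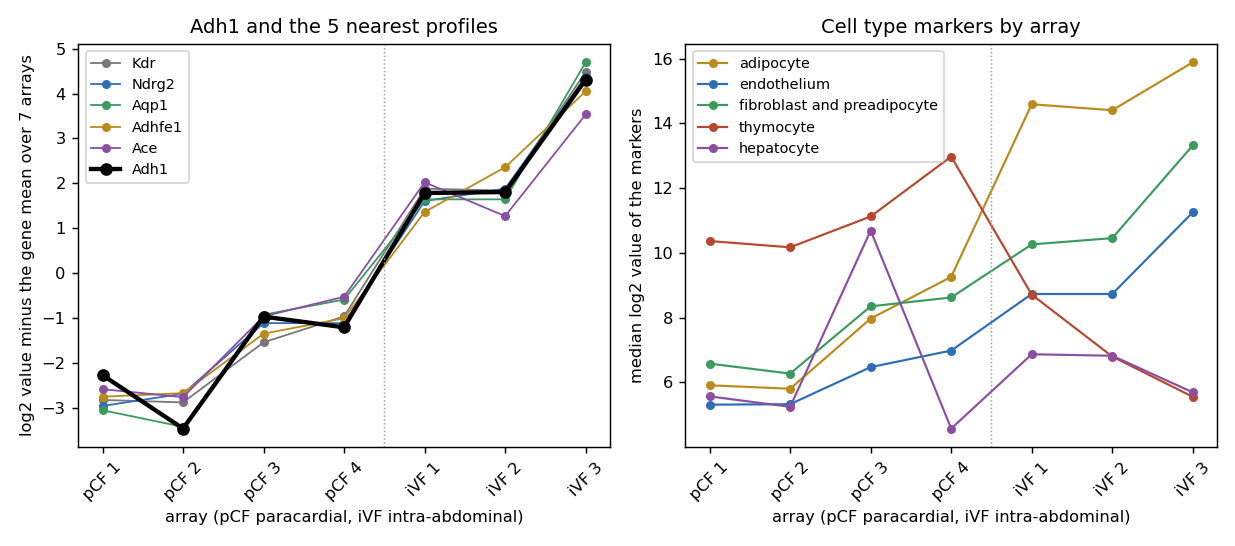
Left, log2 values of Adh1 and the 5 genes nearest to it, each minus its own mean over 7 arrays. Right, median log2 value of marker lists of 5 cell types, with lines that join the arrays for legibility only, since arrays have no order. Adipocyte, endothelial and fibroblast medians are higher on every intra-abdominal than on every paracardial array, and thymocyte medians are lower there.

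Markers of other cells moved with the depots as well. Fibroblast markers, 4 tested of 9 listed, had medians of 6.27 to 8.62 in paracardial and 10.3 to 13.3 in intra-abdominal fat, and 1 of the 4 was lower. The largest of their differences was that of the matrix protein Dpt (-5.36 ± 1.88, adjusted p = 0.137). Among 5 macrophage markers none passed, and Csf1r differed most (-2.42 ± 0.76, adjusted p = 0.103). Thymocyte markers were higher in 4 of 7 cases and did not pass in 3, led by Dntt (7.05 ± 1.48, adjusted p = 0.0341), and of 5 B cell markers none passed (Jchain, 2.54 ± 0.75, adjusted p = 0.0897). Of 5 brown fat markers none passed, and Ucp1 was at 13.92 on paracardial replicate 4 and at 4.36 to 6.14 on the other 6 arrays. Cidea (9.38), Cox7a1 (8.24) and Cox8b (6.86) were highest on that array too, while Otop1 was highest on intra-abdominal replicate 3. On paracardial replicate 4 Aldh1a1, Aldh1a7, Aldh2 and Rdh11 had their highest paracardial values and Rdh16 its lowest, while the other 4 members had theirs elsewhere.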

How the data were processed

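RMA and Affymetrix Expression Console are named in the submitters' processing notes, without versions, and the authors deposited log2 values, 1 for each probe on each array. Their centring and ceiling are unexplained, and the genome build is not stated in the sources used here. The precision is limited by the number of arrays.

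The 9294 genes come from 9352 probes with exactly 1 symbol, out of 11949 (522 had several and 2075 none). Entrez identifiers of 5789 probes matched RefSeq (GRCm38.p6). A gene with several probes kept the one of highest mean, and no filter was used. The test was limma 3.58.1 under R 4.3.3, two-sided, with Benjamini-Hochberg adjustment over all genes at 0.05, and was checked on simulated data. Signs are paracardial minus intra-abdominal. Further steps ran in Python 3.11.15 with scipy 1.17.1 and Biopython 1.88.

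The members and lists were chosen with earlier results of these data known. Genes named are the 9 members, up to 3 past the threshold per pathway list or else its largest, the largest of each cell type list, and the 5 nearest to Adh1 (without unnamed gene models and receptor segments). Alb, Fgb and Msln were named after their values were seen. No gene of the carotenoid and heart muscle lists was analysed here. Alternatives covered filters on dim genes, normalization, robust and weighted fits, blocks, probe choice and arrays left out.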

Additional observations from a re-analysis of the deposited data

Results flagged for a closer look

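In the 4 paracardial arrays, 32 genes were checked for an array far from the other 3, and chance flags about 1 in 20 such groups. Intra-abdominal fat, with 3 arrays, was not checked. In all, 3 genes were picked out, each on paracardial replicate 4, the only paracardial array of the higher maximum, 19.93. Rdh11 was at 8.05 there against 6.59 to 6.71 on the other 3 arrays, a gap of 0.913 of its range. The receptor Rxrb was at 5.82 there, while the other 3 paracardial arrays held 1 and the same value, 5.40. Any other value of Rxrb on replicate 4 would therefore have been flagged. Ucp1, the uncoupling protein of brown fat, was at 13.92 there against 4.61 to 6.14, a gap of 0.836 of its range. The median of the 5 brown fat markers, Ucp1 among them, was 8.24 there against 4.78 to 5.73 on the other paracardial arrays. Neither the array maximum nor cell content was tested as a source of these flags.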

How the results depend on the processing

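Every alternative kept the sign of each of the 9 members, negative for 8 and positive for Rdh11, over 19 to 21 alternatives each. Filters on dim genes, the robust fit and the probe choices could not change the difference of a gene with 1 probe. Their sign was therefore fixed in advance, and the counts below include these near repeats of the main fit. The difference of Adh1 ran from -5.50 to -3.72, with an adjusted p of 0.000788 to 0.142, and passed in 14 of 21 alternatives. Aldh1a1 passed in 15, Aldh1a7 and Rbp4 in 13 each, Retsat in 19, Aldh2 in 3 and Aldh1a2 in 1 (array weights, adjusted p = 0.0330). Rdh16 passed in none of 19 and Rdh11 in none of 21. The exact p of Adh1, 0.0286 under the 3 normalizations tried, is the smallest that 4 arrays against 3 allow and says nothing about stability. With an array left out no such test could reach 0.05, so none was run.

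The replicate number as a block ended all calls, with 0 members, 0 other pathway genes and 0 genes of all, at 2134 genes with an unadjusted p under 0.05. In that limma fit the 5 members called with all arrays had differences of -6.89 to -3.20 and adjusted p of 0.0505 to 0.0562. Replicate 4 exists in paracardial fat only, so it has no part in the difference of that fit. The labels do not say whether the numbers pair the arrays. Among replicates 1 to 3, deviations of same-numbered arrays correlated across genes at 0.0479, 0.0474 and -0.5001. Those of differently numbered arrays correlated at -0.114 to 0.4901. Deviations from the means of so few arrays constrain each other, so these values cannot settle the pairing. Without paracardial replicates 1 and 2 the counts were 0 members and 0 other pathway genes, and 1 gene of all was lower and 0 higher. Without paracardial replicates 3 and 4 (chosen after seeing the data), 1 member passed (Retsat), and 86 genes of all were lower and 65 higher. In the 5 arrays of the lower maximum 3 members passed, all lower, while 316 genes of all were lower and 620 higher. Array weights gave 10 other pathway genes lower and 1 higher, and 1379 genes of all lower and 2235 higher. With the arrays that share a maximum as a block, 573 genes of all were lower and 1081 higher. Of all genes, 416 were lower and 432 higher after quantile normalization again and 530 and 512 after cyclic loess, against 270 and 581 as deposited, while 5 members were lower in each. With each array left out in turn, 1 to 6 members and 0 to 5 other pathway genes were lower, and 62 to 274 genes of all were lower and 114 to 569 higher. The median difference of all genes was 0.133, and -0.00523 after centring on array medians. Cyp2s1 changed sign, to 0.107, without paracardial replicates 1 and 2. Causes of these changes were not tested, and signal over background is unknown.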
